A study of Mus musculus with 15 samples.

Results

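The 10 genes described here encode neuronal tubulins and microtubule-associated proteins (MAPs): Dcx, Dclk1, Map2, Mapt, Map1a, Map1b, Tubb3, Tubb2a, Tubb2b and Tubb4a. They were taken by symbol from a table of 24346 genes, and all 10 were found. The table covers cells from the brain of C57BL/6 mice, with 5 groups and 3 libraries in each. The D0 group holds astrocytes. Another 3, D4, D8 and D16, hold neurons induced by chemicals, taken at day 4, day 8 and day 16. The last, PN, holds primary neurons. All groups share the strain, and the labels name no engineered allele. They give neither the inducing agents, nor the age of the animals, nor the brain region. Nor do they say whether libraries of a group came from separate cultures, so the p-values here reflect the variation among these libraries alone, which may be technical.

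Microtubules are hollow polymers of alpha- and beta-tubulin pairs, and a cell can build them from several tubulin genes whose products differ mostly in their tails. Neurons use an unusually stable array of them to grow and hold axons and dendrites. Proteins that bind the lattice set its spacing and stability and where motors can walk: MAP2 marks dendrites and cell bodies, tau (Mapt) is mostly axonal, MAP1B is prominent in growing axons, and doublecortin (Dcx) marks migrating and newly formed neurons.

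Levels are FPKM, fragments scaled by transcript length and by library total. The summed FPKM still ran from 548309 in PN replicate 1 to 787080 in D8 replicate 2. Comparisons between libraries and between genes are therefore approximate. Changes are differences of log2(FPKM + 1) with their standard errors, and for lowly expressed genes they understate the change. Calls need a change of 1 or more on that scale together with a Benjamini-Hochberg adjusted p under 0.05, from a limma fit of all 15 libraries and 13983 tested genes. The comparisons with astrocytes share the 3 D0 libraries, and so are not independent of each other. Dcx entered the tested genes only through its PN values, and the other 9 members reached 1 FPKM in induced cells too.

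The group labels were set against marker genes of each cell type, as sums that a few genes can carry. The summed FPKM of 8 astrocyte markers was 645 to 1517 in D0, 406 to 483 in D4, 71.4 to 87.1 in D8, 38.4 to 58.0 in D16 and 139 to 255 in PN. At D4 most of this was Gfap (350 to 429 FPKM, not called against D0), while the other 7, such as Aqp4 and Slc1a3, were called lower than in D0. The summed FPKM of 8 neuronal markers that are neither tubulins nor MAPs (Snap25, Syp, Syt1, Nefl, Nefm, Rbfox3, Elavl3 and Elavl4) was 9.04 to 20.3 in D0, 322 to 341 in D4, 505 to 522 in D8, 657 to 692 in D16 and 546 to 1130 in PN, with PN replicate 3 the lowest PN library. The 5 markers of cycling cells summed to 238 to 316 FPKM in D0, 2.26 to 4.28 in D16 and 17.8 to 36.0 in PN. The 6 fibroblast and vascular markers summed to 819, 3973 and 1482 FPKM in D0 replicates 1, 2 and 3 and to 4.29 to 6.53 FPKM in D16. Most of the D0 sum was the smooth muscle actin gene Acta2, at 750, 3761 and 1339 FPKM, with Col1a1 at 65.7, 202 and 133 FPKM. In such bulk samples, fewer cells of a type and less RNA per cell cannot be told apart. The part of these other cells in the results below was not tested.

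The beta-tubulin genes are close relatives, which bears on how well their levels can be told apart. Over the coding sequence (GENCODE M21, GRCm38), Tubb3 and Tubb2a were identical at 83.5% of 1351 aligned positions, Tubb3 and Tubb4a at 82.4%, and Tubb2a and Tubb4a at 84.1%. The coding bases 136 to 195 of these 3 members are shown. Among 60-base windows started at every 3 coding bases, this was the first in which the 3 differ at the most positions. The sequences were compared position by position. The tail end, from the last 60 bases of the shortest coding sequence on, was left out. Capitals mark the 23 positions where the 3 genes do not all have the same base.
Tubb3: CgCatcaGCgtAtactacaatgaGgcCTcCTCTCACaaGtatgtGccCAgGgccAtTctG
Tubb2a: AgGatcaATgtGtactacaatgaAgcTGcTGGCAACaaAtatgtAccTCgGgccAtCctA
Tubb4a: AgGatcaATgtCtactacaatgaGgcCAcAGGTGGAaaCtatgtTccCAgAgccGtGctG
No 150-base window, the read length, was identical between the transcripts of any of these 3. Tubb2a and Tubb2b, which lie close together on chromosome 13, were identical at 96.5% of 1335 coding positions, and 27.9% of the 150-base windows of the Tubb2a transcript also occur in Tubb2b. How the authors' counting divided reads between Tubb2a and Tubb2b is not given in the sources used here, so their separate levels are uncertain and their sum is given as well.

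**Figure D1:**
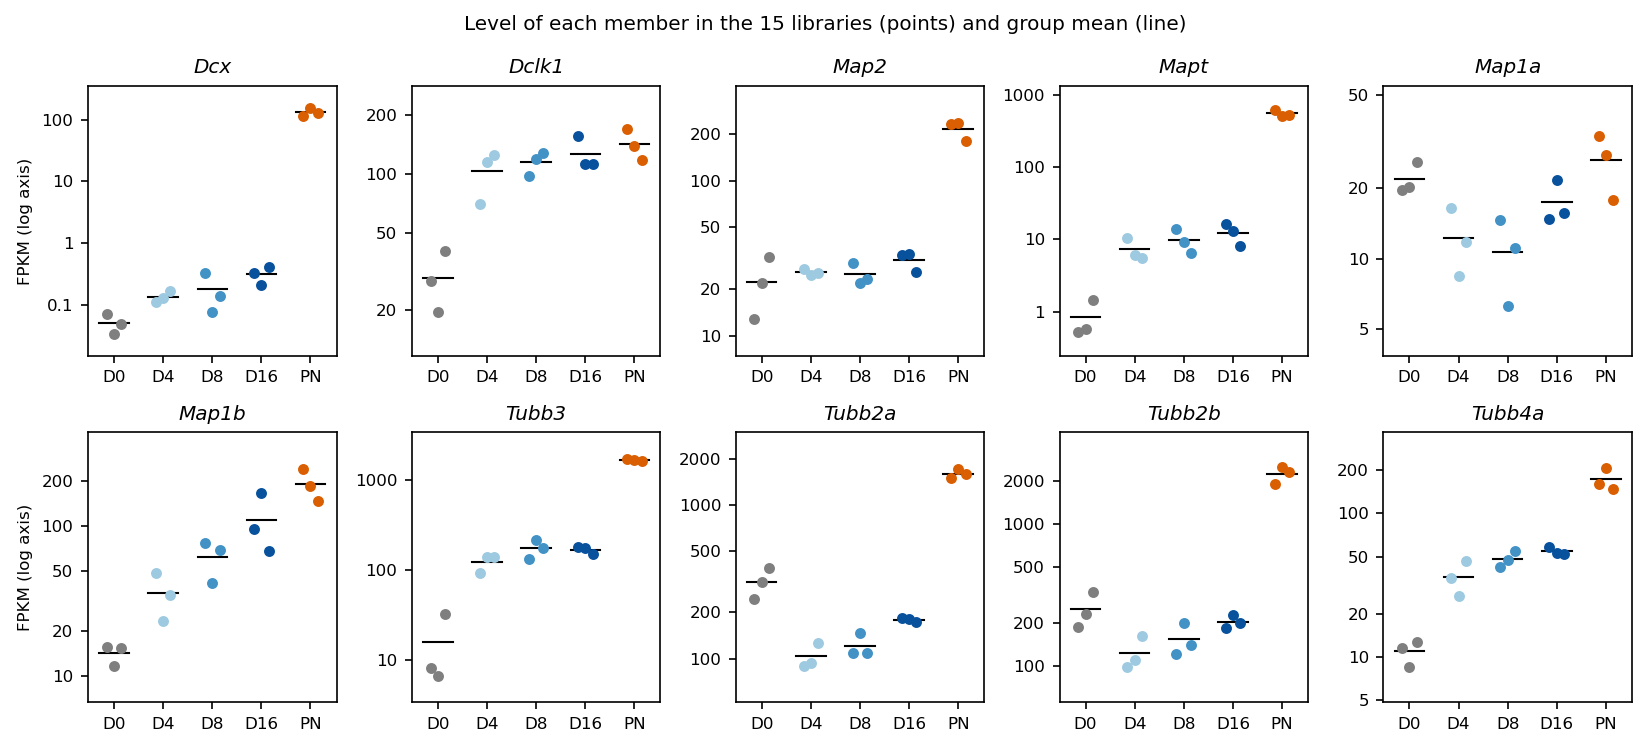
FPKM on a log axis for each of the 10 genes, with 1 point per library and a line at the mean of the 3 libraries of a group. Dcx is at most 0.414 FPKM in every induced library, Dclk1 in D16 overlaps PN, and Tubb2a and Tubb2b dip at D4 and are at 1506 FPKM or more in PN.

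Between astrocytes and day 4 the members split into 3 kinds. Tubb3, Mapt, Dclk1, Tubb4a and Map1b rose, Tubb2a and Tubb2b fell, and Dcx, Map2 and Map1a were not called. Of all tested genes, 13.6% were called higher and 14.2% lower in this comparison, against 5 and 2 of the 10 members. The members were chosen with earlier results of these data known, so such shares, here and below, are descriptions only. The members' median change was 0.75, against -0.01 over all tested genes. At D8 the same number of members was called higher (5, against 15.5% of all genes) and lower (2, against 16.9%), and at D16 5 were called higher (against 16.6%) and 0 lower (against 18.7%; 1 had an unadjusted p below 0.05 in limma). In PN, 9 of 10 were called higher than in D0 and 0 lower, against 17.1% and 23.9% of all genes (limma, 0 members lower at an unadjusted p below 0.05). Dcx is among the 9, and its PN call follows from the filter it passed through PN alone. Of the 9 other members 8 were called higher, with a median change of 3.30. The median change of the members against D0 was 1.11 at D8, 1.33 at D16 and 3.47 in PN, and over all tested genes it was 0.00, -0.01 and -0.12.

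**Figure D2:**
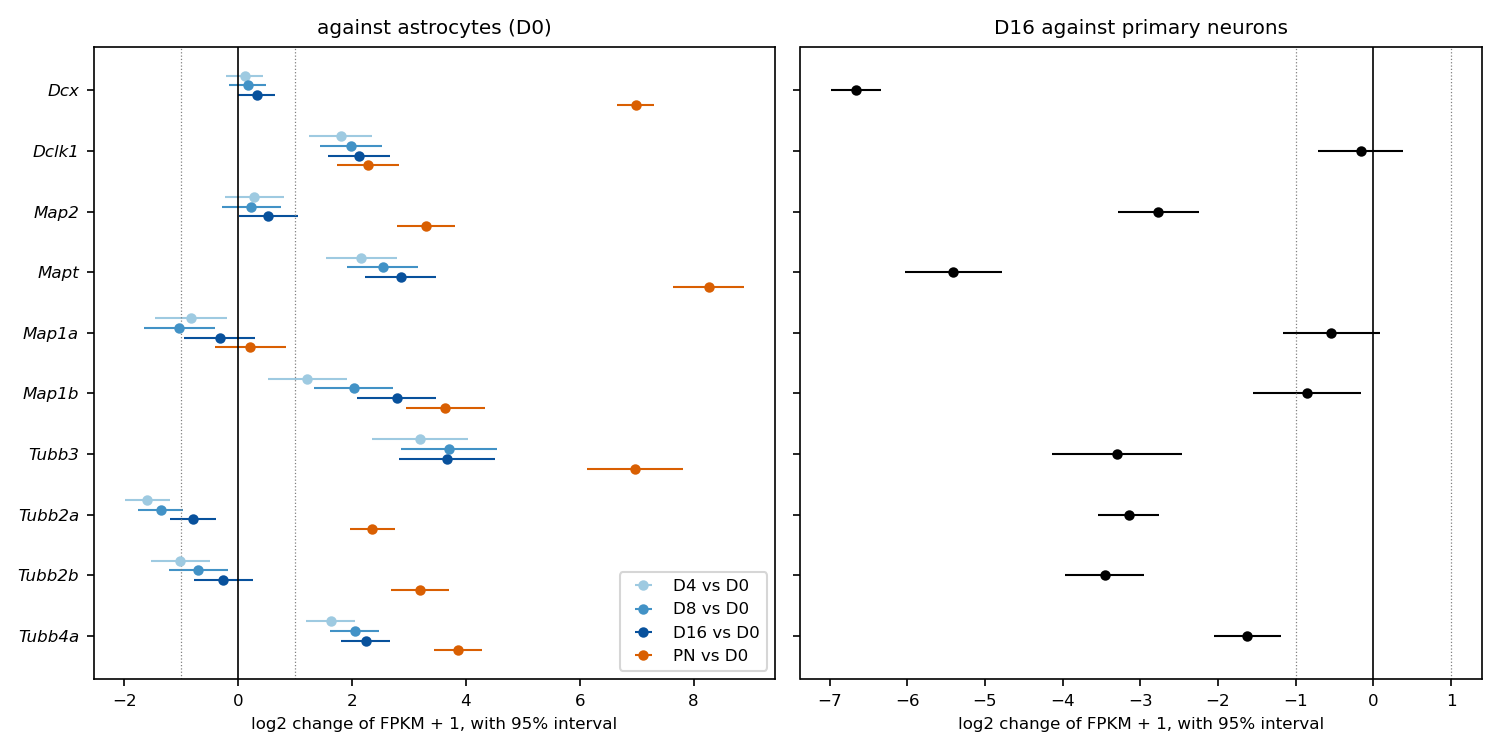
Change of each gene on the log2(FPKM + 1) scale with its 95% interval from limma, against astrocytes on the left and for D16 against primary neurons on the right, with dotted lines at a change of 1 in either direction. On the left Map1b runs from 1.22 at D4 to 2.79 at D16, and on the right the values run from -6.66 for Dcx to -0.16 for Dclk1.

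Dcx, a lattice-binding protein of migrating neurons (chromosome X, start 143855842, end 143933311, minus strand, 7 exons), was at 0.0706, 0.0344 and 0.0489 FPKM in the 3 D0 libraries. It was at 0.112, 0.129 and 0.169 FPKM at D4, at 0.327, 0.0762 and 0.141 FPKM at D8, and at 0.330, 0.209 and 0.414 FPKM at D16. In PN it was at 115, 153 and 130 FPKM. Every induced library thus lay above every astrocyte library, while each remained far below all 3 PN libraries. The margin over D0 was small at D8, with replicate 2 at 0.0762 FPKM against 0.0706 FPKM in D0 replicate 1. Values this low, of unknown depth, do not establish a rise. The change from D0 to D16 was 0.32 ± 0.15 and was not called (adjusted p = 0.072). With a pseudocount of 0.1 instead of 1 it was 1.44 and was called. The changes at D4 and D8 were 0.11 and 0.16, and with quantile normalization they were -0.17 and -0.082. The difference between PN and D0 was 6.98 ± 0.15, and mean Dcx in PN was 417 times that at D16. Both are given as descriptions, with no test, because the filter had fixed them. The 7 neuroblast markers (Sox11, Sox4, Cd24a, Igfbpl1, Dlx1, Dlx2 and Neurod6) summed to 219 to 240 FPKM in D0, 493 to 870 in D4, 392 to 479 in D8, 255 to 300 in D16 and 1056 to 1176 in PN. The sum was carried by Cd24a (mean 165 FPKM in D0, 428 at D4, 138 at D16 and 653 in PN) and, in PN, by Neurod6 (236 FPKM, against 0.028 at D16). Sox11 had another course, with a mean of 6.50 FPKM in D0, 54.0 at D16 and 52.6 in PN. It was called higher at D16 than in D0 (2.88 ± 0.22, adjusted p = 4.1e-08), as were Igfbpl1 (1.45) and Dlx1 (1.41). Sox4, Cd24a, Dlx2 and Neurod6 were not called in that comparison. At D4, Sox11 (2.17), Sox4 (1.71), Cd24a (1.30), Igfbpl1 (2.86) and Dlx1 (1.48) were called higher than in D0. Dlx2 and Neurod6 were not called there.

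Dclk1, the doublecortin relative that joins the same microtubule-binding domains to a kinase (chromosome 3, start 55242364, end 55539068, plus strand), behaved differently from Dcx. It was at 28.3, 19.5 and 40.1 FPKM in D0, and at 70.2, 115 and 125 FPKM at D4. At D8 it was at 97.7, 120 and 127 FPKM, and at D16 at 156, 113 and 112 FPKM. The PN libraries were at 169, 139 and 119 FPKM. The induced libraries did not overlap D0 at any day, and the D16 and PN libraries overlapped. The change from D0 was 1.80 ± 0.26 at D4 (adjusted p = 3.3e-05) and 2.12 ± 0.26 at D16 (adjusted p = 4.2e-06). D16 differed from PN by -0.16 (95% interval -0.71 to 0.38, adjusted p = 0.60), an interval that lies within 1 in either direction. The table gives 1 value for the gene, so long and short forms of Dclk1 were not analysed here.

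The stretches upstream of Dcx and of Tubb3 and Tubb2a are shown because these 3 genes took different courses, respectively without a call, up and down at D4. They come from the RefSeq promoter table (GRCm38.p6), which held 8 of the 10 members, without Mapt and Tubb2b. Each is the part of the 250 bases before a start site that lies ahead of the gene's first annotated exon, 5′ to 3′ on the gene's strand. Capitals mark the motifs searched on both strands: the E-box CAGCTG, the E-box variant CAGATG, the GC box GGGCGG, the cyclic AMP response element TGACGTCA and the TATA motif TATAAA.
Dcx, chrX:143933312-143933469, minus strand: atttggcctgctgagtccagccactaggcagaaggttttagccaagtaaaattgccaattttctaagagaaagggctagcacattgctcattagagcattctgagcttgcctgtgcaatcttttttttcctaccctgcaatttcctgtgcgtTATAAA
Tubb3, chr8:123411303-123411423, plus strand: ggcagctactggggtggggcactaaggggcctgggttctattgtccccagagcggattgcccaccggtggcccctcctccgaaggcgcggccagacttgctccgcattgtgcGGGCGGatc
Tubb2a, chr13:34078009-34078258, minus strand: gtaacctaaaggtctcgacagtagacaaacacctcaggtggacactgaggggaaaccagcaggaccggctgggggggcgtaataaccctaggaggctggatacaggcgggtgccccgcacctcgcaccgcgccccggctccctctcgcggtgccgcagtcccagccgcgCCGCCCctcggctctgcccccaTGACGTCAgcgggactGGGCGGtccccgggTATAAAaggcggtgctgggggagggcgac
In the full 250-base windows, GGGCGG was found for Tubb3 and Tubb2a and in 32.7% of all 32851 windows of that length, and TATAAA for Dcx and Tubb2a and in 12.4% of them. The motif TGACGTCA was found for Tubb2a and in 1.55% of all windows. CAGCTG, in 13.0% of all windows, and CAGATG, in 14.4%, were in none of these 3. These matches describe the letters only. The GC content was 41.6% for Dcx, 68.0% for Tubb3 and 68.4% for Tubb2a, against a median of 52.4% over all windows.

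Mapt and Map2 encode related lattice-binding proteins, and they took different courses. Mapt (chromosome 11, start 104231390, end 104332090, plus strand) was at 0.521, 0.581 and 1.43 FPKM in D0, and at 10.4, 6.07 and 5.49 FPKM at D4. It was at 14.1, 9.20 and 6.41 FPKM at D8 and at 16.1, 13.1 and 8.15 FPKM at D16. In PN it was at 623, 506 and 537 FPKM. The 3 induced groups overlapped each other and were separate from both D0 and PN. Against D0, it changed by 2.16 ± 0.29 at D4 (adjusted p = 2e-05), 2.54 ± 0.29 at D8 and 2.85 ± 0.29 at D16 (adjusted p = 7.6e-07). Mean Mapt in PN was 44.5 times that at D16 (change of D16 against PN -5.41 ± 0.29, adjusted p = 1.2e-09).

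Map2 (chromosome 1, start 66175273, end 66442583, plus strand), the dendritic MAP often used to stain neurons, was already present in the astrocyte libraries, at 12.8, 21.9 and 32.2 FPKM. It was at 26.9, 24.7 and 25.5 FPKM at D4, 29.6, 21.8 and 23.3 FPKM at D8, and 33.4, 33.5 and 25.7 FPKM at D16. The PN libraries were at 232, 236 and 180 FPKM. D0 overlapped all 3 induced groups, and no induced library came near PN. The change from D0 was 0.53 ± 0.24 at D16 (95% interval 0.01 to 1.05, adjusted p = 0.069), and 0.28 at D4 and 0.23 at D8. Without D0 replicate 1, the lowest of the D0 libraries, those at D4 and D8 were -0.05 and -0.10. PN exceeded D0 by 3.30 ± 0.24 (adjusted p = 1.2e-08) and D16 was below PN by 2.77 on the log2 scale, so that mean Map2 in PN was 6.997 times that at D16.

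The 2 MAP1 genes encode large precursors that are cut into a heavy and a light chain. Map1b (chromosome 13, start 99421446, end 99516540, minus strand), the form of growing axons, was at 15.5, 11.6 and 15.4 FPKM in D0. It was at 48.4, 23.3 and 34.7 FPKM at D4, 77.3, 41.4 and 68.8 FPKM at D8, and 96.0, 166 and 68.3 FPKM at D16. In PN it was at 241, 185 and 146 FPKM. All induced libraries were above all D0 libraries, neighbouring days overlapped, and D16 replicate 2 lay within the PN range. Relative to astrocytes, the change was 1.22 ± 0.32 at D4 (adjusted p = 0.0053), 2.03 ± 0.32 at D8 and 2.79 ± 0.32 at D16 (adjusted p = 2.9e-06). Without D4 replicate 1, the D4 change was 0.97 and was no longer called. D16 differed from PN by -0.85 (95% interval -1.55 to -0.16, adjusted p = 0.032), which was not called because it was smaller than 1. It was -1.19 without D16 replicate 2 and -1.03 without PN replicate 3, and was called in both.

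Map1a (chromosome 2, start 121289600, end 121310832, plus strand), the MAP1 form of mature neurons, was the 1 member that did not separate PN from astrocytes. It was at 19.6, 20.3 and 25.9 FPKM in D0, 16.5, 8.40 and 11.7 FPKM at D4, and 14.6, 6.27 and 11.1 FPKM at D8. It was at 14.8, 21.7 and 15.7 FPKM at D16 and at 33.4, 27.6 and 17.7 FPKM in PN. D4 and D8 lay below all D0 libraries, while D16 and PN overlapped D0. The change from D0 was -1.03 ± 0.29 at D8 and was called (adjusted p = 0.007). It was -0.91 without D0 replicate 3, -0.73 without D8 replicate 2 and -0.87 with quantile normalization, and was not called in those 3. At D4 it was -0.83 ± 0.29 (adjusted p = 0.026) and not called, and without D4 replicate 1 it was -1.06 and called. PN differed from D0 by 0.21 (95% interval -0.41 to 0.84, adjusted p = 0.55).

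Tubb3 (chromosome 8, start 123411424, end 123422015, plus strand, 4 exons), the beta-tubulin most used as a neuronal marker, had the largest change of the 10 members on the log2(FPKM + 1) scale at each induced day. As a ratio of mean FPKM to D0, Mapt was higher, at 14.8 against 10.7 for Tubb3 at D16. It was at 8.03, 6.62 and 32.6 FPKM in D0, where replicate 3 was the highest. It was at 92.2, 138 and 137 FPKM at D4, 133, 216 and 174 FPKM at D8, and 178, 177 and 150 FPKM at D16. The PN libraries were at 1701, 1647 and 1633 FPKM. Induced cells were above D0 and below PN in every library. Compared with D0, the difference was 3.20 ± 0.39 at D4 (adjusted p = 8.3e-06), 3.70 ± 0.39 at D8 and 3.67 ± 0.39 at D16 (adjusted p = 1.2e-06). Without D0 replicate 3 these were 3.87, 4.37 and 4.34. Mean Tubb3 in PN was 9.88 times that at D16 (adjusted p = 3.8e-06).

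Tubb4a (chromosome 17, start 57080066, end 57087782, minus strand), a beta-tubulin of neurons and of myelinating oligodendrocytes, was at 11.6, 8.50 and 12.7 FPKM in D0. It was at 35.2, 26.7 and 46.8 FPKM at D4, 42.1, 47.3 and 54.4 FPKM at D8, and 58.7, 53.0 and 52.3 FPKM at D16. In PN it was at 160, 207 and 148 FPKM. The order of the group means was D0, D4, D8, D16 and PN, with overlap only between neighbouring induced days. From D0 to D16 it rose by 2.24 ± 0.20 (adjusted p = 1.8e-07), and mean Tubb4a in PN was 3.14 times that at D16 (adjusted p = 5.2e-06). The 8 oligodendrocyte markers summed to 139 to 227 FPKM in D0, 41.0 to 69.5 in D4, 29.9 to 38.7 in D8, 14.8 to 21.9 in D16 and 17.4 to 23.6 in PN. The sum was carried by Cnp (mean 117 FPKM in D0 and 14.0 at D16) and Olig2 (72.4 and 2.75), and 6 of the 8 were below 1 FPKM in all D0 libraries and 5 in all D16 libraries. Mog was listed at 0 in all D0 and all D16 libraries, and Mobp in all D16 libraries. Mbp had a mean of 0.311 FPKM in D0 and 1.37 at D16, and Mag 0.050 and 0.654.

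Tubb2a and Tubb2b, which make up much of the beta-tubulin of the developing brain, were high in astrocytes already. Tubb2a (chromosome 13, start 34074274, end 34078007, minus strand) was at 244, 317 and 391 FPKM in D0, and at 90.3, 94.0 and 126 FPKM at D4. It was at 109, 147 and 109 FPKM at D8, 183, 182 and 173 FPKM at D16, and 1506, 1707 and 1598 FPKM in PN. The induced libraries all lay below D0, with the lowest mean at D4. The change from D0 was -1.60 ± 0.19 at D4 (adjusted p = 5e-06) and -1.36 ± 0.19 at D8. At D16 it was -0.79 ± 0.19 (adjusted p = 0.0018), which was not called because it was smaller than 1.

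Tubb2b (chromosome 13, start 34126748, end 34130466, minus strand) was at 188, 231 and 331 FPKM in D0, and at 96.9, 110 and 161 FPKM at D4. It was at 120, 199 and 139 FPKM at D8, 184, 226 and 200 FPKM at D16, and 1921, 2504 and 2333 FPKM in PN. At D8 and D16 it overlapped D0. Its D4 change was -1.02 ± 0.24 (adjusted p = 0.0024). This call was lost without D0 replicate 3 (-0.80), without D4 replicate 1 (-0.86), without D4 replicate 2 (-0.96) and with quantile normalization (-0.83). Added together, Tubb2a and Tubb2b were called lower at D4 (-1.32 ± 0.22, adjusted p = 0.00014) and D8 (-1.04 ± 0.22, adjusted p = 0.00086) and were not called at D16 (-0.54 ± 0.22). The sum was higher in PN than in D0 by 2.79 ± 0.22 (adjusted p = 2.6e-08).

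The share of each gene in the total beta-tubulin transcripts does not depend on the scaling of a library, and it was taken over 8 genes: the 4 members with Tubb1, Tubb4b, Tubb5 and Tubb6. The 4 members held 26.3%, 26.7% and 39.7% of the summed FPKM in D0 replicates 1, 2 and 3 (mean 30.9% ± 7.60). Their share was 41.8% ± 0.246 (SD, n = 3) at D4, 48.9% ± 0.793 at D8, 53.8% ± 4.68 at D16 and 80.4% ± 1.66 in PN. Tubb3 alone held 0.468%, 0.314% and 1.68% in D0 replicates 1, 2 and 3, so that replicate 3 set most of the D0 mean of 0.822% ± 0.750. It held 13.4% ± 2.02 at D4, 17.1% ± 0.730 at D8, 14.9% ± 1.56 at D16 and 23.6% ± 2.04 in PN. Tubb4a held 0.579% in D0, 4.89% ± 0.765 at D16 and 2.43% ± 0.382 in PN, with no overlap between D16 and PN. The 4-gene share differed by 23.0 percentage points between D16 and D0 and by -26.6 points between D16 and PN. Neither pair of groups overlapped, and the exact two-sided permutation p was 0.1 for both, the smallest that 3 libraries against 3 can give (0.12 adjusted over the 6 comparisons made). From D8 to D16 the difference was 4.94 points, with an exact p of 0.3. A share is not a level: the summed FPKM of the 8 genes was 1920 in D0 and 1134 at D16. A higher share of the 4 members at D16 therefore does not mean a higher summed level, which was not tested.

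**Figure D3:**
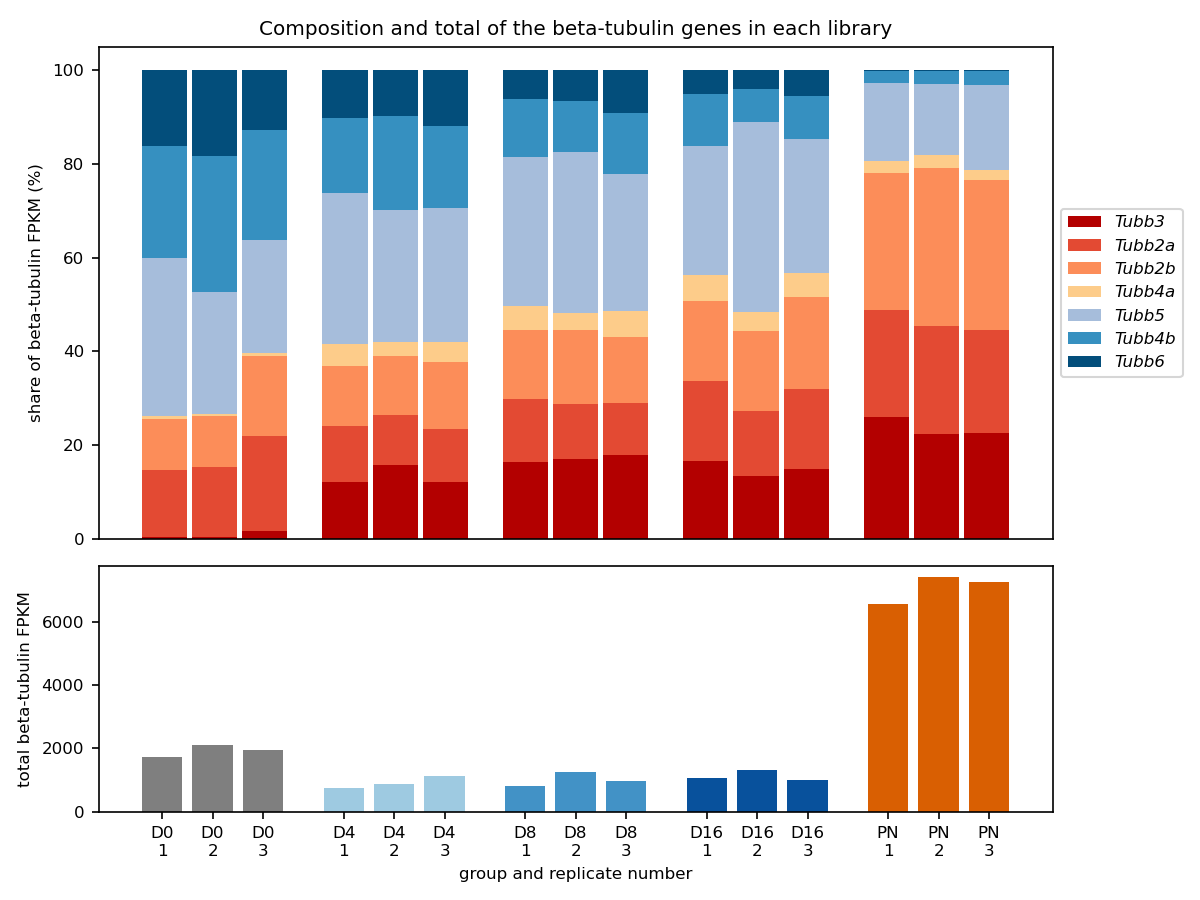
Upper panel, share of the summed beta-tubulin FPKM taken by each gene in each library, with the 4 members in red to yellow and the other genes in blue (Tubb1, at most 0.00345%, is not drawn). Lower panel, the summed FPKM. Red to yellow fills 26.3 to 39.7% of the D0 bars and 78.7 to 82.0% of the PN bars, and the totals are 757 to 1317 FPKM in induced cells and 6563 to 7395 FPKM in PN.

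The total changed as well as the composition. Summed beta-tubulin FPKM was 1920 ± 198 in D0, 919 ± 186 at D4, 1018 ± 227 at D8, 1134 ± 162 at D16 and 7072 ± 446 in PN. Among the other genes, Tubb6 was at 277, 385 and 248 FPKM in D0 and at 54.7, 51.0 and 55.8 FPKM at D16, and at 6.41, 7.23 and 12.6 FPKM in PN. Tubb6 fell by 2.45 on the log2 scale at D16 (adjusted p = 1.7e-06) and by 4.99 in PN (adjusted p = 5.3e-10). Tubb4b, a widely expressed form, fell by 2.26 at D16 (adjusted p = 1.8e-07) and by 1.30 in PN (adjusted p = 3.7e-05). Tubb5, another widely expressed form, was not called at D16 (297, 534 and 289 FPKM, against 578, 548 and 467 FPKM in D0) and rose in PN by 1.15 ± 0.24.

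Between D16 and PN, 7 of the 10 members were called, all 7 lower at D16, against 34.6% of all tested genes called in either direction. In limma, 0 members were higher in D16 at an unadjusted p below 0.05. The 7 were Dcx, Mapt, Tubb2b, Tubb3, Tubb2a, Map2 and Tubb4a, with mean PN levels 417, 44.5, 11.1, 9.88, 8.94, 6.997 and 3.14 times those at D16. Dclk1, Map1a and Map1b were not called, and in each of them D16 and PN libraries overlapped. The median change of the members was -2.96, against 0.06 over all tested genes. Without Dcx, whose call follows from the filter, 6 of 9 were called, with a median of -2.77. Of the 8 neuronal markers, 3 were also called lower at D16 than in PN: Elavl4 (mean 3.11 against 28.4 FPKM), Rbfox3 (5.58 against 50.1) and Syt1 (32.96 against 102). The other 5 were not called, among them Snap25 (172 against 195) and Syp (196 against 259), which carry much of the sum. Of the 10 members, Tubb2b had the highest mean in both D16 and PN, though the separate levels of Tubb2a and Tubb2b are uncertain. At D16 Tubb2b was followed by Tubb2a (179 FPKM), Tubb3 (168), Dclk1 (127) and Map1b (110 ± 50.1), and in PN by Tubb3 (1660), Tubb2a (1604), Mapt (555) and Map2 (216). Mapt was at 12.5 ± 4.03 FPKM at D16, the lowest of the members except Dcx.

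Between the induced days no member was called. From D4 to D8, 0 of 10 were called against 2.01% of all genes. In limma, 1 member, Map1b, had an unadjusted p below 0.05 (0.81 ± 0.32, adjusted p = 0.25), as did 2010 of all 13983 tested genes. The replicate numbers link the D4 and D8 libraries, and with the number as a block the count was also 0 (Map1b 0.81 ± 0.31, adjusted p = 0.22). Dclk1, Mapt, Map1b, Tubb3 and Tubb4a were higher at D8 in each of the 3 same-numbered pairs, and Map1a was lower in each. Of all 13983 tested genes, 3426 (24.5%) were higher at D8 in every pair and 3287 were lower in every pair. From D8 to D16, 0 of 10 were called against 0.0286% of all genes. In limma, 3 members had an unadjusted p below 0.05, all higher, as did 1835 of all 13983 tested genes in either direction. The 3 members were Tubb2a (0.57 ± 0.19, adjusted p = 0.25), Map1a (0.71 ± 0.29, adjusted p = 0.33) and Map1b (0.76 ± 0.32, adjusted p = 0.35). Tubb2a and Map1a did not overlap between D8 and D16. The share of all genes without overlap was not counted, so no shift is read from this. In Tubb3 the difference between D8 and D16 was -0.03 (95% interval -0.87 to 0.81), and its sign turned with rescaling to an equal total (0.10) and with quantile normalization (0.13).

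Genes with the most similar course were sought by the mean absolute difference of the 5 group means on the log2 scale, after subtracting each gene's own mean, among 11618 genes that reached 5 FPKM in a group. For Dcx the nearest were Caly (0.13) and Efnb3 (0.32), and for Mapt Mpped1 (0.35) and Nsg2 (0.44). For Dclk1 they were 5031439G07Rik (0.03) and Sh3kbp1 (0.05), for Map2 A830018L16Rik (0.04) and Prr36 (0.05), and for Map1a Arid1a (0.05) and Prr12 (0.07). For Map1b they were Syn3 (0.08) and Lsamp (0.10), for Tubb3 Cck (0.17) and Psd (0.23), and for Tubb4a Shisa7 (0.05) and Sema6c (0.08). For Tubb2a they were Dpysl2 (0.10) and Fgf13 (0.10), and for Tubb2b Rnf208 (0.11) and Gpr27 (0.13). Among the members themselves, the closest courses were those of Tubb2a and Tubb2b (0.21) and of Map1b and Tubb4a (0.24). All these courses come from the same 15 libraries.

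The other listed genes of the microtubule system numbered 78, of which 76 were in the table and 70 were tested. They too were chosen with earlier results of these data known. At D4, 11 were higher than in D0 (15.7%, against 13.6% of all genes), 6 lower (8.57%, against 14.2%) and 53 not called. At D8 11 were higher (15.7%, against 15.5%), 10 lower (14.3%, against 16.9%) and 49 not called. At D16, 15 were higher (21.4%, against 16.6%), 9 lower (12.9%, against 18.7%) and 46 not called. In PN 26 were higher (37.1%, against 17.1%), 10 lower (14.3%, against 23.9%) and 34 not called. D16 was above PN in 4 (5.71%) and below in 26 (37.1%). Of all genes, 34.6% were called between D16 and PN in either direction, and 56.7% of those were higher at D16. The median change of the 70 against D0 was 0.04 at D16 and 0.53 in PN. In limma, 0 of the 70 were called between D8 and D16, and between D4 and D8 only Fignl1 and Tuba1b were, both lower at D8.

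**Figure D4:**
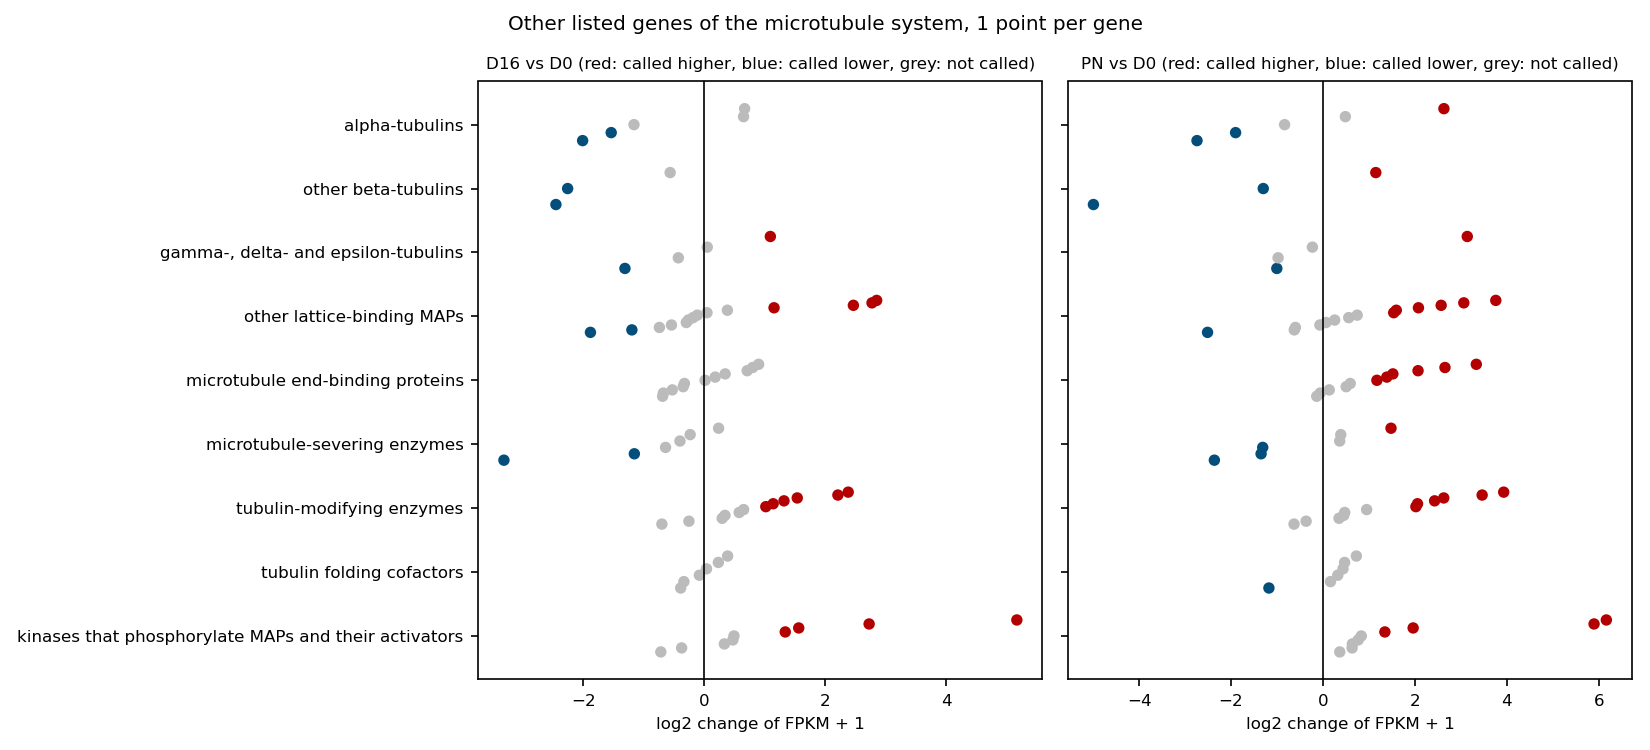
Change of the 70 other tested genes of the microtubule system on the log2(FPKM + 1) scale, by list, for D16 against D0 and PN against D0, with 1 point per gene coloured by its call. The end-binding proteins have no called gene at D16 and 6 in PN, and the kinases and activators reach 5.17 at D16.

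Alpha-tubulins were called lower in 2 of 5 tested genes at D16 and higher in 0, against 18.7% and 16.6% of all tested genes. Tuba1a, the main alpha-tubulin of young neurons, was at 890, 1347 and 999.95 FPKM in D0, 400.2, 525 and 233 FPKM at D16 and 6742, 6066 and 6984 FPKM in PN. It fell by 1.54 at D16 (adjusted p = 0.00049) and rose by 2.63 ± 0.31 in PN (adjusted p = 2e-06). Tuba1b fell by 2.01 at D16 (adjusted p = 0.0001). In PN, Tuba1c fell by 2.74 (adjusted p = 0.0005) and Tuba8 by 1.90. Counting may divide reads among the near-identical Tuba1 genes, so their separate levels are uncertain.

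Among 14 tested MAPs outside the members, 4 were higher and 2 lower at D16, and 6 were higher and 1 lower in PN. The shares of all tested genes were 16.6% higher and 18.7% lower at D16, and 17.1% and 23.9% in PN. Map7d2, which recruits kinesin, rose by 2.85 ± 0.21 at D16 (adjusted p = 2.5e-08) and by 2.57 ± 0.21 in PN. The tubulin-polymerizing protein gene Tppp rose by 2.47 ± 0.32 at D16 and 3.76 ± 0.32 in PN, and Mtcl1, which crosslinks microtubules, by 2.77 ± 0.28 at D16. In PN Mtcl1 was not called (mean 2.41 FPKM, against 2.26 in D0 and 21.9 at D16). Map9 rose by 3.06 ± 0.16 in PN. The end-binding proteins had 0 of 11 called at D16 and 6 of 11 higher in PN. These included the minus-end protein gene Camsap3 (3.34 ± 0.20), the plus-end protein gene Mapre2 (2.65 ± 0.18) and Clasp2 (2.07 ± 0.17).

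Tubulin-modifying enzymes, most of which act on its tails, were higher in 6 of 12 tested genes at D16 and in 6 of 12 in PN, with 0 lower in both. For these and the next 2 lists, the all-gene shares were 16.6% higher and 18.7% lower at D16, and 17.1% and 23.9% in PN. Vash1 and Vash2, which remove the final tyrosine of alpha-tubulin, rose by 2.21 ± 0.18 and 2.38 ± 0.35 at D16 and by 3.46 ± 0.18 and 3.93 ± 0.35 in PN. Vash2 was at 1.41, 0.562 and 0.938 FPKM in D0, and at 7.97, 10.6 and 8.89 FPKM at D16. The polyglutamylase gene Ttll7 rose by 1.54 ± 0.19 at D16, and Atat1, which acetylates alpha-tubulin inside the microtubule, by 2.63 ± 0.21 in PN. Of 6 tested severing enzymes, 2 were lower at D16, Fignl1 (fell by 3.31) and Katnal2 (fell by 1.15). In PN 1 was higher and 3 were lower: Spast rose by 1.48 ± 0.14, while those that fell included Fignl1 (fell by 2.36) and Katna1 (fell by 1.35). Of 6 folding cofactors, 0 were called at D16, and in PN Tbcel fell by 1.18.

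Kinases that phosphorylate MAPs, and their activators, were higher in 4 of 9 genes at D16 and in 4 of 9 in PN, with 0 lower in both. Over all tested genes, 16.6% were higher and 18.7% lower at D16, and 17.1% and 23.9% in PN. The activators of the neuronal kinase CDK5 moved furthest. Cdk5r2 was at 0.250, 0.148 and 0.218 FPKM in D0, 42.8, 44.0 and 40.1 FPKM at D16, and 108, 125 and 46.3 FPKM in PN, a rise of 5.17 ± 0.27 at D16 (adjusted p = 6.7e-10). Cdk5r1 rose by 2.73 ± 0.22 at D16 and by 5.90 ± 0.22 in PN. Mark1, a kinase that releases MAPs from microtubules, rose by 1.56 ± 0.22 at D16 and 1.96 ± 0.22 in PN. In the gamma-, delta- and epsilon-tubulin list, Tubg2 rose by 1.09 ± 0.22 at D16 and 3.14 ± 0.22 in PN, and Tubd1 fell by 1.31 at D16.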

How the data were processed

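RNA sequencing of 15 libraries, 3 in each of 5 groups, gave the values used here. Total RNA was extracted with a column kit, per the labels' protocols, and reads were paired and 150 bases long, per the labels. Values are FPKM as the authors deposited them, in a table with 24346 gene symbols and a column for each library. The genome builds mm10 and GRCm38 come from the submitters' processing notes. The aligner, the quantifier, the annotation and the use of strand are not given in the sources used here. The table gives no read counts, and its low values showed no clear step of 1 read (5.43% to 15.3% of value ratios in the commonest step in the 14 libraries compared with D0 replicate 1), so the depth is unknown.

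Groups came from the labels. Genes at 1 FPKM or more in at least 3 of 15 libraries (13983) were tested as log2(FPKM + 1) with limma 3.58.1 in R 4.3.3, with 1 mean per group and a trended variance, and Benjamini-Hochberg adjustment over all tested genes. The fit was tested on simulated data. Shares of beta-tubulin were compared by exact permutation. All 10 members are named. Of the other microtubule genes, those named are the beta-tubulins and, per list, up to 3 called genes with the largest change at D16 and in PN. The members and the lists were chosen with earlier results of these data known. Positions and coding sequences are from GENCODE M21 (GRCm38), and upstream sequences from RefSeq (GRCm38.p6).

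Marker lists for oligodendrocyte precursors (10.5 to 27.7 FPKM summed in all libraries) and microglia (1.65 to 22.9 in D0, 2.33 to 4.65 in D16, 6.04 to 11.3 in PN) were also summed. At D16 the microglia sum was mostly Tmem119 (2.31 to 3.72 FPKM), with Tyrobp, C1qb, Cx3cr1 and P2ry12 listed at 0. Same-numbered D4 and D8 libraries deviated together from their group means (correlations 0.329 to 0.454 across genes, others -0.497 to 0.114), so the numbers were taken to pair those samples. In the other comparisons not every same-numbered pair exceeded 0.1. The alternatives tried were equal totals, a filter at 5 FPKM or none at all, a pseudocount of 0.1, quantile normalization, the replicate number as a block, fits of 2 groups, no minimum change, Tubb2a and Tubb2b summed, and leaving out each library.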

Additional observations from a re-analysis of the deposited data

How the results depend on the processing

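The number of members called (Dcx included) stayed within 1.5 times the reported one in every alternative: 6 to 8 at D4, 6 to 8 at D8, 5 to 6 at D16 and 8 to 9 in PN against D0, and 6 to 8 for D16 against PN. With the replicate number as a block the counts were 7, 7, 5, 9 and 7 in that order, and 0 for both comparisons of neighbouring days, so the block changed no count of members. Of 70 member changes, 52 kept direction and call throughout, 8 lost or gained a call and 10 changed sign, and the sign changes were all in changes that had not been called. With quantile normalization Dcx was -0.17 at D4 and -0.082 at D8 against D0. Leaving out a library gave a range of -0.047 to 0.58 for Map2 at D4 and -0.10 to 0.53 at D8. Between D4 and D8 it gave -0.036 to 0.12 for Dcx, -0.067 to 0.34 for Dclk1, -0.18 to 0.031 for Map2 and -0.44 to 0.11 for Map1a. Between D8 and D16 it gave -0.022 to 0.21 for Dclk1 and -0.21 to 0.14 for Tubb3, which was 0.10 with equal totals and 0.13 with quantile normalization. With no minimum on the change, the other microtubule genes called against D0 numbered 35, 42, 42 and 55 of 70 at D4, D8, D16 and in PN. For D16 against PN they numbered 51. The share of all genes called at this setting is not given here. In limma, 8242, 8886, 9228 and 9442 of the 13983 tested genes had an unadjusted p below 0.05 against D0, and 9168 for D16 against PN. Equal totals moved the median of all genes by 0.11 in PN against D0 and quantile normalization by 0.12. Among all genes called between D4 and D8, 24.9% were higher, 15.5% with equal totals and 31.4% with quantile normalization. The causes were not tested. The depth behind each FPKM value is unknown, so low values such as those of Dcx outside PN carry no counting interval.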
